A study of Mus musculus with 9 samples.

Results

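The genes described here are 10 genes of smooth muscle contraction, chosen by symbol and found in the expression table of 22337 genes: Acta2, Actg2, Myh11, Myl9, Mylk, Cnn1, Tagln, Smtn, Lmod1 and Des. In the testis they are known above all from peritubular myoid cells. All 10 had counts in every one of the 9 testes, from 68 counts for Actg2 in 1 testis to 2726 counts for Acta2 in another, and all 10 passed the filter on low counts in every comparison.

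Testes of mice aged 3 weeks were sequenced as whole-tissue RNA in 3 groups of 3: wild-type, heterozygous (Piwil4 WT/R264W) and homozygous (Piwil4 R264W/R264W). The knock-in allele puts a tryptophan in place of an arginine in PIWIL4, which works with piRNAs in the male germline to silence transposons. The allele was made with CRISPR-Cas9 in C57BL/6 zygotes, so it is not limited to a cell type. The labels say that the testes came from mice but do not number the animals, so the p-values measure the spread between these samples.

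Peritubular myoid cells are flat, contractile cells that wrap each seminiferous tubule. They squeeze the tubule and so move immature sperm and fluid towards the rete testis, and with the Sertoli cells they lay down the basement membrane. Their contraction uses the machinery of smooth muscle: calcium and calmodulin switch on myosin light chain kinase, the kinase phosphorylates the regulatory light chain, and smooth muscle myosin then pulls on actin filaments. Smooth muscle cells of blood vessels use the same genes, so whole-testis RNA does not separate the sources.

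The libraries held between 17.96 and 24.3 M counts, and 3 counts in a library made between 0.124 and 0.167 CPM before TMM scaling. CPM are read counts relative to library size, and all CPM of genes given here are after TMM scaling of the libraries. Piwil4 itself had between 18 and 46 counts in each library, and a count cannot show the substituted base. The testes differed in how far the first wave of spermatogenesis had come, which was scored by averaging the log2 CPM of 17 genes of round spermatids, the haploid cells that first appear at about this age. In replicate order, wild-type testes scored 5.89, 2.51 and 1.34, Piwil4 WT/R264W testes 4.92, 3.43 and 0.70, and Piwil4 R264W/R264W testes 2.35, 3.60 and 5.70. The scores thus varied within every genotype and overlapped between them. The lowest Piwil4 R264W/R264W score, 2.35, was above the lowest of the wild-type (1.34) and Piwil4 WT/R264W (0.70) testes. The labels give no sequencing batch or date.

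Many smooth muscle genes are switched on through the CArG box, the site that serum response factor binds. A promoter window of 300 bases, from 250 before to 50 after the start, was available from RefSeq (GRCm38.p6) for 7 of the 10 genes. An exact CArG box, searched on both strands, was found in 1 of the 7 (Myl9), and in 1.63% of all 32851 windows. With at most 1 mismatch a match was found in 3 of the 7 (Acta2, Lmod1 and Myl9), and in 21.1% of all windows. The stretch from -180 to -61, counted from the start, is printed for the 2 most abundant genes, each of which has its best match there, with that match in capitals. The Myl9 stretch lies at chr2:156775284-156775403 on the plus strand, and the Acta2 stretch at chr19:34255434-34255553 on the minus strand.
Myl9: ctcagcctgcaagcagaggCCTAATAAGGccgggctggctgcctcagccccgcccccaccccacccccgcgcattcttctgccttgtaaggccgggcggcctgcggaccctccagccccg
Acta2: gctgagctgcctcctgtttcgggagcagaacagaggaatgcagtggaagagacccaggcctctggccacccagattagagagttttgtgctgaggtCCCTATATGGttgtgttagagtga
The Myl9 match has no mismatch and lies from -161 to -152. The Acta2 match has 1 mismatch and lies from -84 to -75. A match describes the letters of the window and is no measure of binding.

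On the FPKM scale, which allows for gene length, Myl9 and Acta2 were the most abundant of the 10 genes, with medians over the 9 testes of 57.3 and 44.0 FPKM. Mylk followed at 18.9, Tagln at 15.1, Actg2 at 10.5 and Myh11 at 6.60 FPKM. The lowest medians were those of Cnn1 at 4.03, Smtn at 3.08, Des at 1.77 and Lmod1 at 1.61 FPKM. Of the 9 pairs of neighbours in this order, only Acta2 and Mylk had ranges that did not overlap. Myl9 was above Acta2, Acta2 above Mylk, Mylk above Tagln, Myh11 above Cnn1 and Smtn above Des in 9 of 9 testes. The place of Actg2 in the order was not fixed, since it lay below Tagln in 6 and above Myh11 in 5 of the 9 testes.

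**Figure D1:**
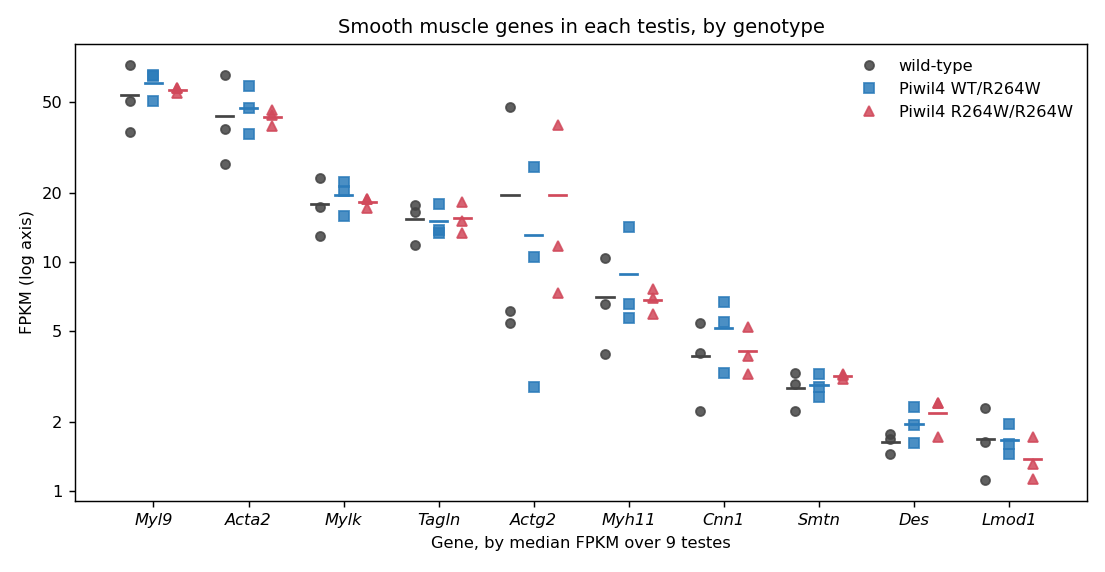
FPKM (log axis) of the 10 smooth muscle genes in each of 9 testes, with 3 points a genotype and a bar at the mean of the 3. The genotypes overlap for every gene, and Actg2 has the widest spread, from 2.86 to 47.4 FPKM.

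The smooth muscle actins are the filaments on which myosin pulls. Acta2 encodes alpha-actin, the usual marker of myoid cells, and Actg2 encodes gamma-actin of visceral smooth muscle, which in mice is also known from haploid male germ cells. With testes given in the order of replicates 1, 2 and 3 here and for each gene, Actg2 was at 52.7, 7.05 and 6.998 CPM in the wild-type testes, at 26.2, 11.9 and 3.57 CPM in the Piwil4 WT/R264W testes and at 8.54, 12.7 and 43.1 CPM in the Piwil4 R264W/R264W testes. The genotypes overlapped, and within each genotype a single testis was far above the others, the one with the highest stage score.

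In the order of the stage score, Actg2 was at 3.57, 6.998, 8.54, 7.05, 11.9, 12.7, 26.2, 43.1 and 52.7 CPM, a 14.7-fold range. Its slope in edgeR, with genotype in the fit, was 0.70 on the log2 scale per unit of the score (SE 0.04, 95% confidence interval 0.61 to 0.79, adjusted p = 2.25e-08, 9 testes). Actg2 was 1 of 10 genes called with a slope above 0, against 17.4% of all 15771 genes tested. No smooth muscle gene was called with a slope below 0, against 8.2% of all genes. Of all genes tested, 2.95% had a higher slope than Actg2. The slope lay between 0.67 and 0.75 with any 1 library left out. In bulk RNA, a change in the number of cells of a type and a change in RNA per cell cannot be told apart.

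Acta2 did not follow that order. Wild-type replicates 1 to 3 had 59.9, 76.2 and 132 CPM. Its levels were 118, 72.4 and 93.8 CPM in the heterozygous Piwil4 WT/R264W group, and 88.1, 80.5 and 97.6 CPM in the Piwil4 R264W/R264W testes. The highest and the lowest testis were both wild-type. The slope of Acta2 on the stage score was -0.06 (SE 0.06, 95% confidence interval -0.18 to 0.06, edgeR adjusted p = 0.461). Of the FPKM of both genes together, Actg2 made up 5.75% in the testis with the lowest score and 63.9% in the testis with the highest, where it stood above Acta2.

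**Figure D2:**
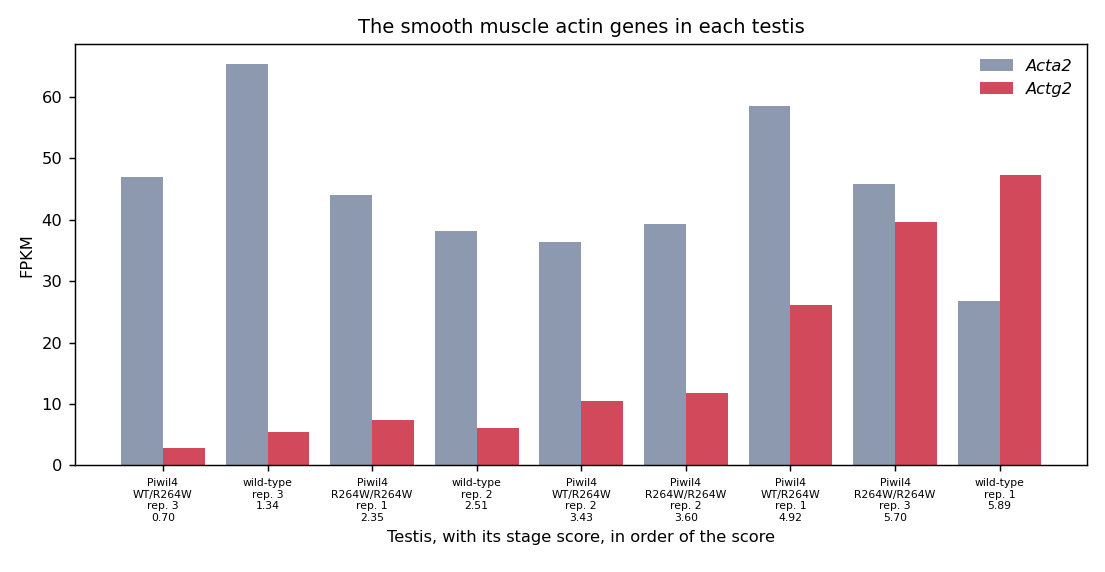
FPKM of Acta2 and Actg2 in each of the 9 testes, in order of the stage score, which is printed under each testis. Actg2 goes from 2.86 to 47.4 FPKM along the order and exceeds Acta2 in the last testis, while Acta2 is highest, at 65.4 FPKM, in the testis second in the order.

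The muscle actins are close to identical as proteins, and reads could be shared among their genes where the sequences match. Whether Acta2 and Actg2 shared reads was not tested. The skeletal and cardiac genes Acta1 and Actc1 had few counts. Acta1 had at most 4 counts in a library. Actc1 had 27 and 18 counts in Piwil4 R264W/R264W replicates 2 and 3 and at most 1 in each other library. The cytoplasmic actins Actb and Actg1 had slopes of 0.03 and 0.02 on the stage score (edgeR adjusted p = 0.361 and 0.532).

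Among the motor genes, Myh11 encodes the smooth muscle myosin heavy chain. It was at 28.5, 43.4 and 68.2 CPM in wild-type replicates 1 to 3, at 94.9, 38.3 and 41.8 CPM in the Piwil4 WT/R264W testes and at 50.2, 39.2 and 49.0 CPM in the Piwil4 R264W/R264W testes. Its highest testis was 3.33-fold above its lowest, the widest range of the 9 genes other than Actg2. Piwil4 WT/R264W replicate 1 was the highest and wild-type replicate 1 the lowest, although their stage scores were both among the 3 highest. The slope of Myh11 was -0.005 with a 95% confidence interval from -0.18 to 0.17 (edgeR adjusted p = 0.973).

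Myl9, the regulatory light chain that the kinase phosphorylates, was at 45.8, 57.9 and 82.1 CPM in the wild-type testes, at 75.6, 58.7 and 71.7 CPM in the Piwil4 WT/R264W testes and at 65.6, 63.1 and 69.6 CPM in the Piwil4 R264W/R264W testes. Both mutant groups lay inside the wild-type range. Mylk, the myosin light chain kinase, was at 65.2, 76.0 and 92.4 CPM in the wild-type testes, at 80.4, 64.5 and 83.2 CPM in the Piwil4 WT/R264W testes and at 69.9, 69.4 and 78.4 CPM in the Piwil4 R264W/R264W testes. The range of Mylk was 1.43-fold, close to the median range of 1.42-fold over the 11621 genes with a mean of at least 5 CPM. The slopes of Myl9 and Mylk were -0.06 and -0.04 (edgeR adjusted p = 0.243 and 0.341).

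Calponin, transgelin, smoothelin and leiomodin bind the actin filament. Calponin (Cnn1), which restrains the myosin motor, was at 3.48, 5.39 and 8.54 CPM in wild-type replicates 1 to 3, at 10.2, 4.36 and 6.73 CPM in the Piwil4 WT/R264W testes and at 6.53, 5.96 and 8.71 CPM in the Piwil4 R264W/R264W testes. As for Myh11, Piwil4 WT/R264W replicate 1 was the highest and wild-type replicate 1 the lowest, 2.93-fold apart. Leiomodin (Lmod1), which nucleates actin filaments, was at 4.87, 6.56 and 9.12 CPM in the wild-type testes, at 7.90, 6.53 and 5.63 CPM in the Piwil4 WT/R264W testes and at 6.85, 5.27 and 4.78 CPM in the Piwil4 R264W/R264W testes. The wild-type range of Lmod1 held all but the lowest of the other testes.

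Transgelin (Tagln, also called SM22-alpha) was at 20.7, 26.8 and 28.5 CPM in the wild-type testes, at 22.5, 21.9 and 28.2 CPM in the Piwil4 WT/R264W testes and at 29.5, 21.7 and 26.0 CPM in the Piwil4 R264W/R264W testes. The 4 testes with the lowest stage scores held the 4 highest levels of Tagln. Its slope was -0.08 (95% confidence interval -0.14 to -0.02), the lowest of the 10, with an unadjusted p of 0.0146 and an edgeR adjusted p of 0.0551. With limma on log2(FPKM + 0.1) the slope was -0.11 with an adjusted p of 0.0377, and on log2(FPKM + 1) it was -0.10 with an adjusted p of 0.0259. Without Piwil4 WT/R264W replicate 2 or Piwil4 R264W/R264W replicate 2 or 3, the edgeR adjusted p of Tagln was 0.0409, 0.0309 and 0.0402. Without wild-type replicate 1 or Piwil4 WT/R264W replicate 3 it was 0.276 and 0.166, and with the replicate number as a block it was 0.104. Without the 2 testes farthest from the median score the slope was -0.03 (edgeR adjusted p = 0.836). Smoothelin (Smtn), a protein of contractile smooth muscle, was at 7.98 to 10.5 CPM in the wild-type testes, at 8.54 to 10.6 CPM in the Piwil4 WT/R264W testes and at 10.1 to 11.5 CPM in the Piwil4 R264W/R264W testes.

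Desmin (Des), the intermediate filament of muscle cells, was at 4.87, 5.43 and 5.12 CPM in the wild-type testes, at 7.22, 5.08 and 5.78 CPM in the Piwil4 WT/R264W testes and at 5.28, 7.47 and 7.91 CPM in the Piwil4 R264W/R264W testes. Piwil4 R264W/R264W replicates 2 and 3 exceeded every wild-type testis, and replicate 1 fell among them. The means were 6.89 ± 1.41 and 5.14 ± 0.282 CPM (SD, n = 3 each), a log2 difference of 0.42 (SE 0.20, 95% confidence interval -0.05 to 0.89). The unadjusted p of Des in edgeR was 0.0737, the smallest of the 10 genes in any genotype comparison. Its adjusted p was 1.0, and the exact permutation test (two-sided) gave p = 0.2, where 3 against 3 cannot go below 0.1.

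**Figure D3:**
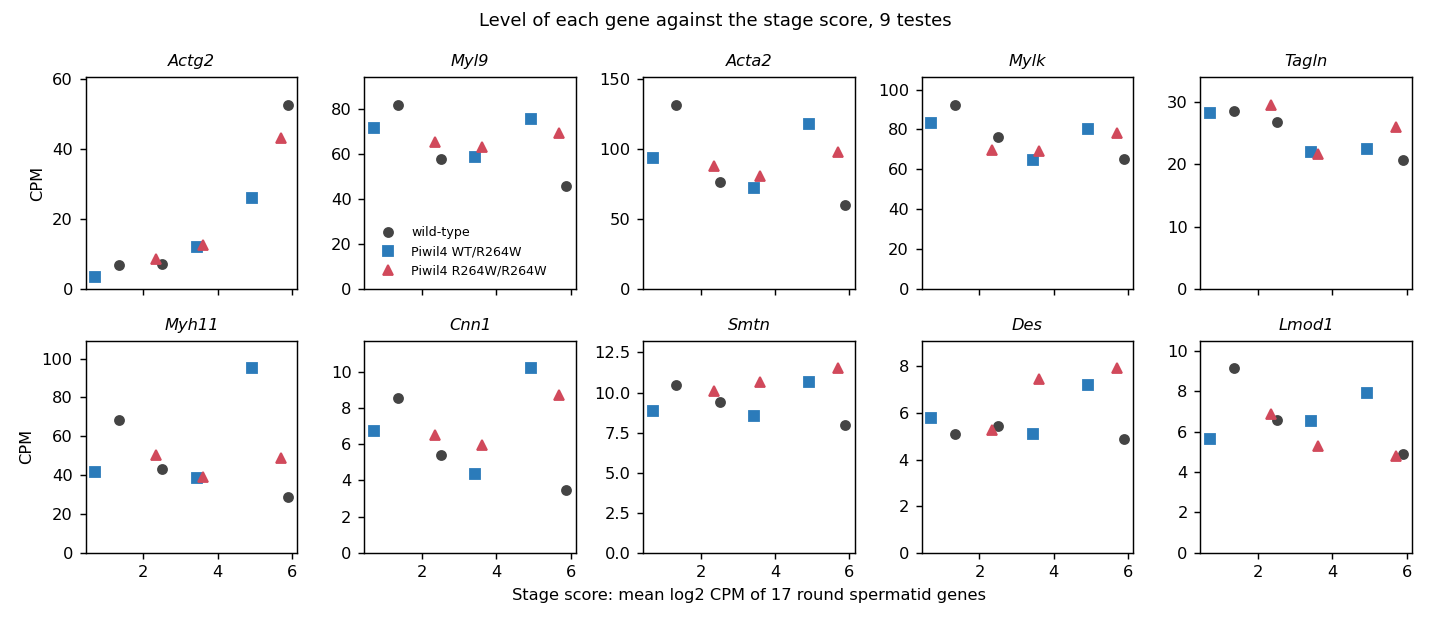
CPM of each of the 10 genes (vertical axes, each starting at 0) against the stage score made from 17 round spermatid genes, with 1 point a testis and the genotypes marked. Actg2 climbs from 3.57 to 52.7 CPM with the score, while the other 9 genes show no such climb and share low values in the last wild-type testis.

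The genotype comparisons ask whether an allele of a germ cell gene goes with a change in these 10 genes in whole-testis RNA. For Piwil4 R264W/R264W against wild-type, edgeR called 0 of the 10 genes at an adjusted p under 0.05, as it did 0% of all 15543 genes tested. At an unadjusted p under 0.05 it called 0 of 10, against 1.26% of all genes, and 0 of 10 had groups that did not overlap, against 5.58%. Against Piwil4 WT/R264W, the Piwil4 R264W/R264W testes gave 0 of 10 by the 3 rules, where 0%, 2.22% and 7.06% of all 15463 genes passed. Piwil4 WT/R264W against wild-type also gave 0 of 10 by each rule, where 0%, 1.11% and 5.36% of all 15413 genes passed. DESeq2 called 0 of the 10 genes in each comparison, by the adjusted and by the unadjusted p, where it called 0.0129%, 0.0388% and 0% of all genes by the first and 0.888%, 1.80% and 0.701% by the second.

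The median log2 difference of the 10 genes was 0.006 for Piwil4 R264W/R264W against wild-type, where all genes had a median of -0.005. It was -0.029 against Piwil4 WT/R264W, beside 0.006, and 0.042 for Piwil4 WT/R264W against wild-type, beside -0.019. The 3 comparisons share testes and are not independent of each other. The intervals say how large a difference these testes could have hidden. For Mylk in Piwil4 R264W/R264W against wild-type the interval ran from -0.43 to 0.23, for Acta2 from -0.69 to 0.67 and for Myh11 from -0.75 to 0.72. For Actg2 it ran from -2.40 to 2.28, wider than for any of the others.

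The genotype values of Actg2 turned with single testes. Its log2 difference between Piwil4 R264W/R264W and wild-type was -0.06 (SE 0.97). Without wild-type replicate 1 it was 1.61, and without Piwil4 R264W/R264W replicate 3 it was -1.08, both testes of high stage score. Without Piwil4 R264W/R264W replicate 1 or 2 it was 0.33 and 0.21. With the stage score in the fit it was -0.18 (SE 0.16), and the other comparisons gave 0.11 (SE 0.14) against Piwil4 WT/R264W and -0.29 (SE 0.19) for Piwil4 WT/R264W against wild-type, none past an unadjusted p of 0.05. Leaving out a testis moved 3 genes, but not Actg2, past an unadjusted p of 0.05 for Piwil4 R264W/R264W against wild-type, with adjusted p-values of 1.0 in edgeR. These were Acta2 at 0.38 and Myl9 at 0.35 without wild-type replicate 3, where 0.888% of all genes passed, and Des at 0.58 without Piwil4 R264W/R264W replicate 1, where 0.943% passed.

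**Figure D4:**
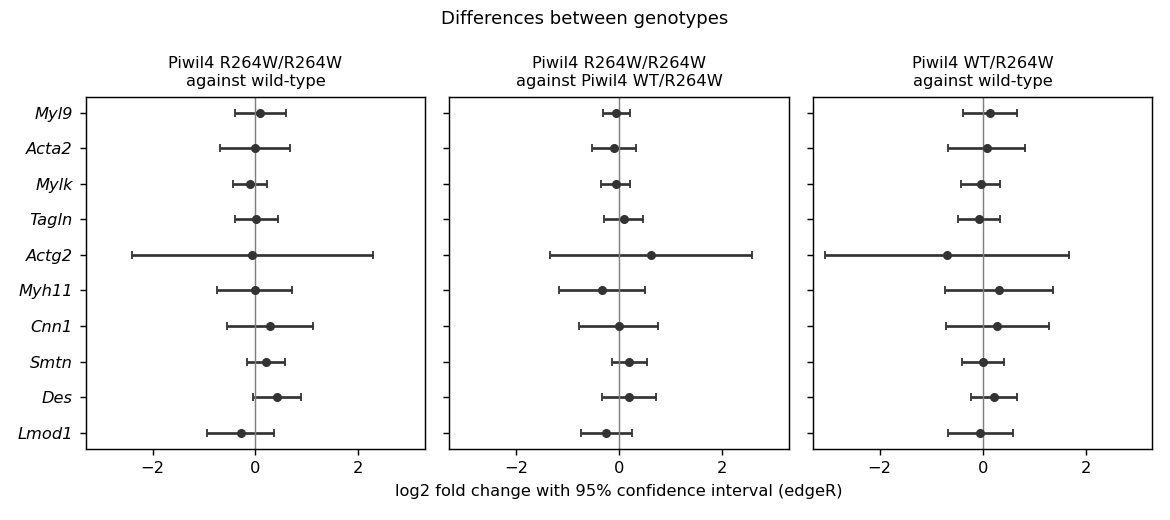
Log2 fold change of each of the 10 genes in the 3 genotype comparisons, with 95% confidence intervals from edgeR. Every interval includes 0, and the widest in each panel is that of Actg2, from -2.40 to 2.28 in the first.

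Across the stage score, the 9 genes other than Actg2 had slopes from -0.08 (Tagln) to 0.05 (Des), and none of them passed the test. The slopes of Lmod1, Cnn1 and Smtn were -0.07, -0.025 and -0.001, with 95% confidence intervals from -0.19 to 0.05, -0.20 to 0.15 and -0.08 to 0.08. The median of all 10 was -0.032 beside -0.012 for all genes tested. This depended on Piwil4 WT/R264W replicate 1, a testis of high score in which several of these genes were high. Without it, edgeR called 38.6% of all 15990 genes tested, rising and falling together, against 25.6% with all 9 testes. The calls thus became more frequent among all genes, and the share that fell in that fit is not given here. Of the 10 genes, 5 were called. Actg2 was called as before, and with slopes below 0 Myh11 (-0.14, adjusted p = 0.0298), Acta2 (-0.13, adjusted p = 0.0450), Myl9 (-0.10, adjusted p = 0.0329) and Tagln (-0.09, adjusted p = 0.0382), all in edgeR. Without wild-type replicate 1, the lowest testis for most of them, the slopes of Acta2 and Myh11 were instead 0.03 and 0.13.

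**Figure D5:**
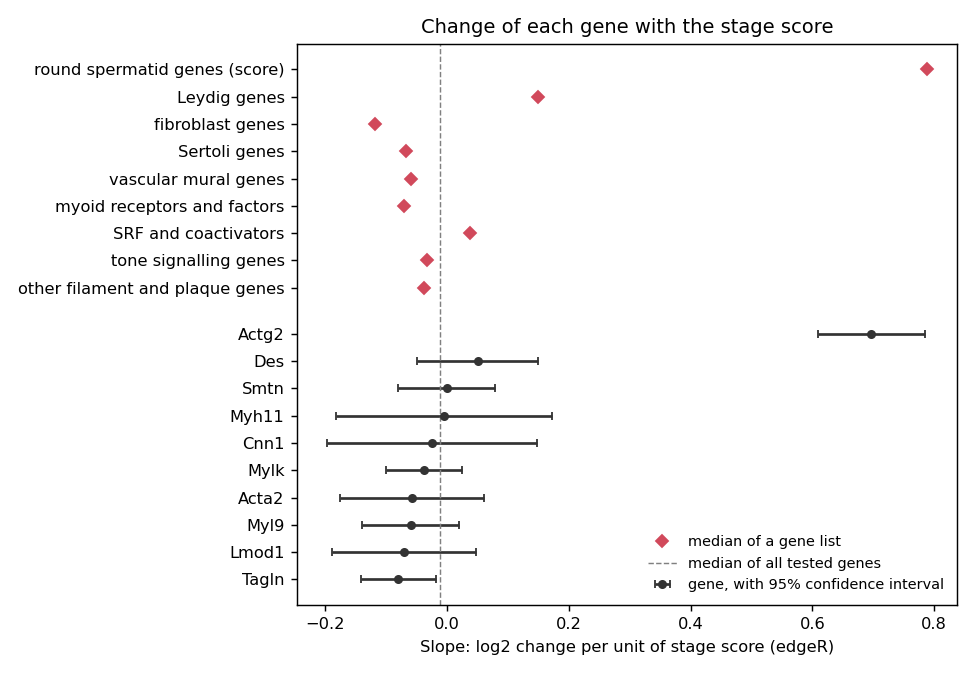
Slope on the stage score (log2 change per unit, edgeR) of each of the 10 genes with its 95% confidence interval, below the median slopes of 9 gene lists. Actg2 at 0.70 lies near the round spermatid genes that make the score, whose median is 0.79, and the other 9 genes lie between -0.08 and 0.05.

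The 9 genes other than Actg2 shared low and high testes to different degrees. The correlation of each with the mean of the other 8 was highest for Acta2 (0.966), Cnn1 (0.958) and Myl9 (0.938). It was lowest for Des (0.343), Tagln (0.426) and Lmod1 (0.533). In Piwil4 R264W/R264W replicate 3, Des and Smtn were at their highest and Lmod1 at its lowest. The summed level of the 9 genes was between 242 CPM in wild-type replicate 1 and 436 CPM in wild-type replicate 3. It was 427 CPM in Piwil4 WT/R264W replicate 1. Wild-type replicate 1 was the lowest testis for 7 of the 9 genes and among the lowest 2 for all 9. Wild-type replicate 3 was among the highest 2 for 6 of the 9, and Piwil4 WT/R264W replicate 1 for 5 of the 9. In wild-type replicate 1, the summed levels of the marker lists of Sertoli cells, fibroblasts, vascular mural cells and myoid receptors were also the lowest of the 9 testes, and those of round spermatids and macrophages were the highest, at 1237 and 154 CPM. The Leydig list, at 456 CPM, was below that of Piwil4 R264W/R264W replicates 2 and 3 only. Whether these markers have a part in the low values there was not tested.

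The genes most like the 9 in their pattern over the 9 testes, by Pearson correlation with the mean of the 9 among 11611 genes, were Cyp26b1 (r = 0.957), Ndn (r = 0.929), Pcsk6 (r = 0.928), Ctsb (r = 0.925) and Cadm1 (r = 0.922). Cyp26b1 encodes the enzyme that breaks down retinoic acid, and was between 45.5 and 75.3 CPM. Flna, the actin-crosslinking filamin A, came at rank 10 with r = 0.913 and a range from 50.3 to 118 CPM. Against the mean of all 10 genes, Actn1 (alpha-actinin, r = 0.874) and Trim56 (r = 0.872) came first, followed by Sorcs2, Lamc3, Col15a1, Ccdc8, Nbn, Fam189a2, Bnc2 and Cyp26b1 with r from 0.850 down to 0.792. The genes most like Actg2 were others, 1700129C05Rik (r = 0.998), Scube2 (r = 0.996) and Vwa3a (r = 0.993), each with a slope above 0 on the stage score (0.30, 0.38 and 0.97). All these correlations are over the same 9 libraries and share their scaling.

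Other genes of smooth muscle contraction gave no call between genotypes either. Of 16 further genes of thin filaments, anchoring and dense plaques, 11 of channels, kinases and phosphatase subunits, 4 of serum response factor and its coactivators and 10 of myoid receptors and secreted factors, edgeR called 0 in each comparison at an adjusted or unadjusted p under 0.05. Of all genes, 0% passed the adjusted p in each comparison. The unadjusted p was passed by 1.26% for Piwil4 R264W/R264W against wild-type, 2.22% for Piwil4 R264W/R264W against Piwil4 WT/R264W and 1.11% for Piwil4 WT/R264W against wild-type. Of the 11 genes of channels, kinases and phosphatase subunits, 10 were tested for Piwil4 R264W/R264W against Piwil4 WT/R264W. The smallest unadjusted p was 0.0517 for Csf1, a macrophage growth factor, at a log2 difference of 0.33 for Piwil4 R264W/R264W against Piwil4 WT/R264W. Cacna1c, the pore of the L-type calcium channel, had 6.11 ± 0.416 CPM in the Piwil4 R264W/R264W testes against 8.07 ± 1.56 in the wild-type and 8.27 ± 1.91 in the Piwil4 WT/R264W testes (SD, n = 3 each), with unadjusted p-values of 0.0725 and 0.0709 in edgeR. Ppp1r12b, a subunit of the myosin phosphatase, was at -0.18 and the coactivator Mrtfb at -0.17 against wild-type (edgeR unadjusted p = 0.0916 and 0.105). For Piwil4 R264W/R264W against Piwil4 WT/R264W, Pdlim7, an actin-associated adaptor, was at -0.35 (edgeR unadjusted p = 0.0753). For Piwil4 WT/R264W against wild-type the smallest unadjusted p-values in edgeR were 0.0905 for Synm (-0.20), 0.115 for Myl6 (0.20) and 0.218 for Csf1 (-0.22).

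On the stage score, Pln and Tns1 had slopes above 0 that passed the test. Pln, which encodes the calcium pump inhibitor phospholamban, rose with a slope of 0.66 (edgeR adjusted p = 4.09e-06) over a range from 0.631 to 7.56 CPM. Tns1, the adhesion protein tensin 1, rose with a slope of 0.36 (edgeR adjusted p = 1.61e-07) from 50.1 CPM in the lowest to 199.9 CPM in the highest testis. By the same test, 17.4% of all 15771 genes tested rose and 8.2% fell. Of the 16 filament and plaque genes 2 rose and 1 fell (Tpm1, a tropomyosin, slope -0.09). Of the 11 signalling genes 1 rose and 1 fell (Rock2, a kinase that inhibits the myosin phosphatase, slope -0.07). Srf (slope 0.08) and its coactivator Mrtfa (slope 0.10) rose among the 4 transcription genes. Of the 10 myoid receptors and factors 1 fell, Ptch1, the receptor of hedgehog ligands (slope -0.10). The lowest slopes in these lists were those of Ednrb (-0.20), Gdnf (-0.16) and Itga8 (-0.12), which did not pass (edgeR adjusted p = 0.0829, 0.173 and 0.185).

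Markers of other cells bear on how these levels can be read. The 12 genes of vascular mural cells, which share the contractile genes, summed to 59.8 to 83.1 CPM in the wild-type testes, 72.5 to 77.6 CPM in the Piwil4 WT/R264W testes and from 66.1 to 82.3 CPM in the Piwil4 R264W/R264W testes, led by Mcam and Rgs5. None of the 12 was at 0 in every library, and their part in the smooth muscle levels was not tested. The 19 genes of striated muscle summed to between 29.7 and 42.9 CPM, of which Ttn made 10.6 to 14.9 CPM. Adipose genes summed to 42.1 CPM in Piwil4 R264W/R264W replicate 3 and 25.9 CPM in replicate 2, against at most 16.3 CPM in each other testis. Replicates 3 and 2 were also the testes with the highest Des, at 7.91 and 7.47 CPM. Piwil4 WT/R264W replicate 1 came close in Des, at 7.22 CPM, with an adipose sum of 11.3 CPM. Of 12 epididymal genes 3 were at 0 in every library, and the list summed to 69.9 CPM in Piwil4 R264W/R264W replicate 1, 39.5 of it from Crisp1, against at most 36.0 CPM in each other testis. Tagln was highest in that testis, at 29.5 CPM. Wild-type replicate 3 and Piwil4 WT/R264W replicate 3 came close in Tagln, at 28.5 and 28.2 CPM, with epididymal sums of 32.9 and 32.0 CPM. The part of these tissues in Des and Tagln was not tested.

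Marker genes of other cells were also called on the stage score, where 17.4% of all 15771 genes tested rose and 8.2% fell. Of 16 Sertoli genes 4 fell and 1 rose in edgeR at an adjusted p under 0.05, and of 9 fibroblast genes 1 fell. Of 9 Leydig genes tested 2 rose, of 10 macrophage genes 2 rose and of 12 endothelial genes 1 rose. Of 10 vascular mural genes tested 1 rose and Rgs5 fell (slope -0.10). The median slope was -0.118 for the fibroblast list, -0.071 for the myoid receptors, -0.067 for the Sertoli list, -0.059 for the vascular mural list, -0.017 for the endothelial list, 0.013 for the macrophage list and 0.15 for the Leydig list, beside -0.032 for the 10 smooth muscle genes.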

How the data were processed

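mRNA-seq libraries of 9 whole testes were sequenced as 150 bp paired-end reads, per the study's methods. The authors filtered the reads with fastp 0.18.0 and used StringTie 1.3.1 to compute the deposited FPKM values. The deposited table also holds an estimated count for each gene and testis, of which 89.2% were whole numbers. The submitters' notes name mm39. The aligner, annotation and counting tool are not given in the sources used here. If strand was not used, 5 of the 10 genes (Tagln, Des, Lmod1, Smtn and Mylk), which overlap a gene on the other strand in GENCODE (GRCm38), can hold reads of that gene.

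Estimated counts were rounded and fitted with edgeR 4.0.16 in R 4.3.3 (filterByExpr, TMM, quasi-likelihood test, two-sided, Benjamini-Hochberg adjustment over all genes tested). The 6 libraries of each pair of genotypes were fitted for a genotype difference. All 9 libraries were fitted for a slope on the stage score with genotype as a covariate. Genotype groups came from the labels. An exact permutation test was also run on single genes (scipy 1.17.1). Alternatives used DESeq2 1.42.0, limma 3.58.1 on FPKM for genes with a mean of at least 0.5 FPKM, other filters, another scaling, a pachytene score, and libraries left out. The fits were tested on simulated data.

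The 10 genes and all lists were chosen with earlier results of these data known. All 10 are named in every comparison. From the 4 lists of smooth muscle and myoid genes, those named have the 3 smallest p-values in each genotype comparison and the 3 highest and 3 lowest slopes. A gene that this rule names is not reported here. Those most correlated with the mean of the 10 were named from a mean of 5 CPM upwards. The other actins, Tpm1, Rock2, Srf, Mrtfa, Ptch1, Rgs5 and the genes most like Actg2 or the 9 others were named after their values were seen.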

Additional observations from a re-analysis of the deposited data

How the results depend on the processing

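The slope of Actg2 kept its direction and its call under every alternative. On a pachytene score in place of the stage score its adjusted p was 0.0118, and without the 2 testes farthest from the median score its slope was 0.67 (edgeR adjusted p = 2.77e-04). Of 640 values of single genes under the alternatives, 540 kept their direction and side of the threshold, 44 changed sign with 1 library left out and 44 changed sign otherwise. A threshold missed in the reported fit was passed by 13 values, 1 of them with its sign changed (Acta2 without wild-type replicate 3). All values that changed sign had not passed a test in the reported fit. The number of smooth muscle genes past an unadjusted p of 0.05 was 0 to 2 with 1 library left out for Piwil4 R264W/R264W against wild-type (0.888% of all genes in the fit that gave 2), and 1 (Smtn, log2 difference 0.39) for Piwil4 R264W/R264W against Piwil4 WT/R264W with libraries scaled on Sertoli genes, where 3.63% of all genes passed. The number called on the stage score was 2 with limma on log2(FPKM + 0.1) and 2 on log2(FPKM + 1), where Tagln was added and 26.5% and 30.2% of all genes were called, and 1 to 5 with 1 library left out (38.6% of all genes in the fit that gave 5). Scaling on Sertoli genes moved the median of all genes to 0.18 for Piwil4 R264W/R264W against Piwil4 WT/R264W and to -0.21 for Piwil4 WT/R264W against wild-type. Relative to it, Smtn was 0.21 in the first, and Acta2 was -0.075 in the first and 0.12 in the second, the signs of the TMM fit. Some values did not return to the TMM sign relative to the median of all genes. These were Cnn1 at 0.03 in the first, Acta2 at 0.049 and Myh11 at 0.043 for Piwil4 R264W/R264W against wild-type, and the slope of Smtn at 0.008. 

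Same-numbered testes did not all deviate together from their group means (correlations from -0.734 to 0.784), and in 4 of 6 libraries for Piwil4 WT/R264W against wild-type and 0 of 6 in each other comparison the closest library of the other genotype had the same number, and the labels give no litter or batch, so the numbers were not taken to pair the testes. With the replicate block, 0 of the 10 genes passed an unadjusted p of 0.05 in each genotype comparison, and the slope of Actg2 was 0.69. 

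Sign changes by setting were as follows, and their cause was not tested. With DESeq2, for Piwil4 R264W/R264W against wild-type Acta2 was 0.006, for Piwil4 R264W/R264W against Piwil4 WT/R264W Cnn1 was 0.005 and for the slopes Smtn was 0.004. With libraries scaled on Sertoli genes, for Piwil4 R264W/R264W against wild-type Acta2 was 0.025 and Myh11 0.019, for Piwil4 R264W/R264W against Piwil4 WT/R264W Acta2 was 0.11, Cnn1 0.21, Myl9 0.14 and Mylk 0.13, for Piwil4 WT/R264W against wild-type Acta2 was -0.083, Smtn -0.18 and Myl9 -0.022 and for the slopes Myh11 was 0.036, Cnn1 0.016, Smtn 0.047 and Mylk 0.01. With limma on log2(FPKM + 0.1), for Piwil4 R264W/R264W against wild-type Acta2 was 0.082, Actg2 0.37, Myh11 0.068 and Mylk 0.066 and for Piwil4 WT/R264W against wild-type Lmod1 was 0.031 and Mylk 0.15. With limma on log2(FPKM + 1), for Piwil4 R264W/R264W against wild-type Acta2 was 0.078, Actg2 0.32, Myh11 0.049 and Mylk 0.061 and for Piwil4 WT/R264W against wild-type Lmod1 was 0.01 and Mylk 0.14. With the replicate block, for Piwil4 R264W/R264W against wild-type Acta2 was 0.066, Actg2 0.41 and Myh11 0.059, for Piwil4 R264W/R264W against Piwil4 WT/R264W Cnn1 was 0.063 and for the slopes Smtn was 0.01. With the stage score as a covariate, for Piwil4 R264W/R264W against wild-type Acta2 was 0.13 and Myh11 0.16. Without the 2 testes farthest from the median score, for the slopes Acta2 was 0.052, Myh11 0.078, Cnn1 0.17, Smtn 0.064, Myl9 0.022 and Mylk 0.052. Without a genotype term, for the slopes Myh11 was 0.001 and Smtn 0.012. With at least 10 counts required in every library, for the slopes Smtn was 0.003.

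For Piwil4 R264W/R264W against wild-type, leaving out 1 library at a time gave log2 differences from -0.23 to 0.38 (Acta2), -1.08 to 1.61 (Actg2), -0.27 to 0.36 (Myh11), -0.082 to 0.35 (Myl9), -0.21 to 0.039 (Mylk) and -0.10 to 0.13 (Tagln). For Piwil4 R264W/R264W against Piwil4 WT/R264W, leaving out 1 library at a time gave log2 differences from -0.25 to 0.10 (Acta2), -0.39 to 1.47 (Actg2), -0.26 to 0.36 (Cnn1), -0.57 to 0.21 (Myh11), -0.15 to 0.026 (Myl9), -0.17 to 0.004 (Mylk) and -0.021 to 0.22 (Tagln). For Piwil4 WT/R264W against wild-type, leaving out 1 library at a time gave log2 differences from -0.13 to 0.47 (Acta2), -1.54 to 0.99 (Actg2), -0.068 to 0.67 (Cnn1), -0.23 to 0.22 (Lmod1), -0.23 to 0.69 (Myh11), -0.028 to 0.40 (Myl9), -0.15 to 0.10 (Mylk), -0.10 to 0.097 (Smtn) and -0.20 to 0.02 (Tagln). With 1 library left out, the slopes ran from -0.13 to 0.027 (Acta2), -0.14 to 0.097 (Cnn1), -0.14 to 0.13 (Myh11) and -0.031 to 0.049 (Smtn), and with no change of sign from -0.15 to -0.004 (Lmod1), -0.10 to -0.003 (Myl9), -0.064 to -0.005 (Mylk), -0.10 to -0.066 (Tagln) and 0.02 to 0.098 (Des). The lowest counts limit the precision: Des, Lmod1 and Cnn1 rest on 75 to 227 counts a library, and Actg2 on 68 in its lowest.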
